A study of Mus musculus with 24 samples.

Results

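Paw skin was compared with the lumbar spinal cord on day 6 of treatment with an LTβR agonist antibody, the lymphotoxin β receptor being a TNF-family receptor. The members are 6 of the 24 libraries of the series, chosen by tissue and day: 3 of paw and 3 of spinal cord. Each file listed 22609 gene symbols, of which 16141 had enough reads in these libraries to be tested. All 6 samples came from male C57 mice aged 8 to 12 weeks that had been given the antibody into the hind paw (intraplantar), 10 µg at each of 2 injections. The paw samples were punch biopsies of the injected side, and the cord samples were the lumbar part. Both tissues of the comparison were therefore treated, and no IgG sample enters it. By the titles, day 6 falls 6 days after the first injection; the design text can be read as 6 days after both. The day 1 libraries used further on, 3 per tissue, came from mice of the same strain, sex and age given 1 injection of 10 µg. Nothing in the labels ties the numbered samples to separate animals, and p-values therefore cover only the spread between these samples, which may be technical.

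LTβR is bound by membrane lymphotoxin and by LIGHT, and signals through TRAF adaptors and the kinase NIK to the non-canonical NF-κB pair p52 and RelB, beside the canonical pathway. Skin and cord each hold resident macrophages, stromal cells and vessels, but of different kinds. The cord parenchyma holds microglia, the resident macrophages of the central nervous system, kept alive by CSF1R signals and held at rest in part by neuronal fractalkine. The dermis holds macrophages of embryonic and monocyte origin, together with mast cells, dendritic cells and a collagen-rich fibroblast stroma. A bulk library adds all of these cells up, so fewer cells of a type and less RNA per cell cannot be told apart in any value below. Tissue and library preparation also cannot be told apart, since each library holds 1 tissue only and the labels give no preparation date.

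Depth favoured paw. Reads counted in genes ranged from 32.7 to 41 (in units of 1e6) in the paw libraries and from 15.7 to 24.5 in the cord libraries, with 17361 to 17601 and 17174 to 17421 genes detected. The 50 most abundant genes took 20.6 to 22.6% of the reads in paw and 12.7 to 13.9% in cord. Several libraries stood apart from their group. Cord libraries 1 and 3 held far more signal than cord library 2 from Schwann cell genes (summed 11785, 969 and 10718 CPM for cord libraries 1, 2 and 3), fibroblast genes (1047, 299 and 930 CPM), fibrillar collagens (1340, 491 and 1302 CPM) and MHC class II genes (219, 46.9 and 152 CPM). CPM is a count scaled to a common library size with the TMM factor applied. Cord library 1 also held 578 CPM of neutrophil genes against 107 and 152 CPM in libraries 2 and 3, and cord library 3 held 1119 CPM of skeletal muscle genes against 114 and 458 CPM. Among the paw libraries, library 2 held 3492 CPM of stress keratinocyte genes against 807 and 1195 CPM in libraries 1 and 3. It also held 155 CPM of neutrophil genes against 27 and 17 CPM. Both lists include S100a8 and S100a9. The part that these differences play in any result was not tested, and results are given with cord library 2 as the only cord library where that changes them by over 1.5-fold, an alternative chosen after the data were seen, in which the lone cord library is assumed to vary like the paw libraries.

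**Figure D1:**
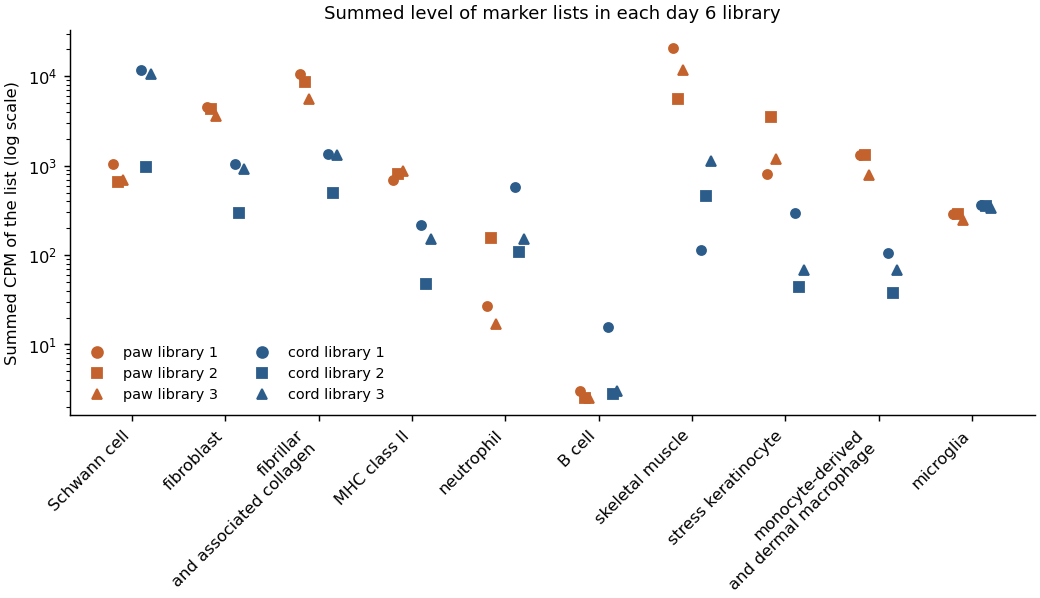
Summed CPM (log scale) of 10 marker lists in each of the 6 day 6 libraries, paw in orange and cord in blue, with a different marker for libraries 1, 2 and 3. Cord library 2 lies well below cord libraries 1 and 3 for the Schwann cell, fibroblast, collagen and MHC class II lists, whereas the microglia list lies between 247 and 364 CPM in every library.

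Across all genes, the tissues differed at most loci. At an adjusted p under 0.05 in edgeR's quasi-likelihood F test, 80.5% of the 16141 genes differed (40.1% higher in paw, 40.4% higher in cord), which is too broad to single out any list. Calls in the text therefore use edgeR's test against a 2-fold bound (glmTreat, Benjamini-Hochberg adjusted p under 0.05), named "higher beyond 2-fold". By that test 7738 genes differed, 47.9% of those tested, with 3739 higher in paw (23.2%) and 3999 higher in cord (24.8%). Most called differences were large. The median fold was 6.95 among genes higher in paw and 10.6 among genes higher in cord. A fold over 100 was reached by 537 genes in paw and 795 in cord, and 216 genes called in paw had no read in any cord library, against 193 the other way. The groups did not overlap for 84.2% of the genes tested, so lack of overlap alone says little here. At the other end, the 95% interval of the log2 fold change lay within 2-fold in either direction for 4709 genes (29.2%).

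**Figure D2:**
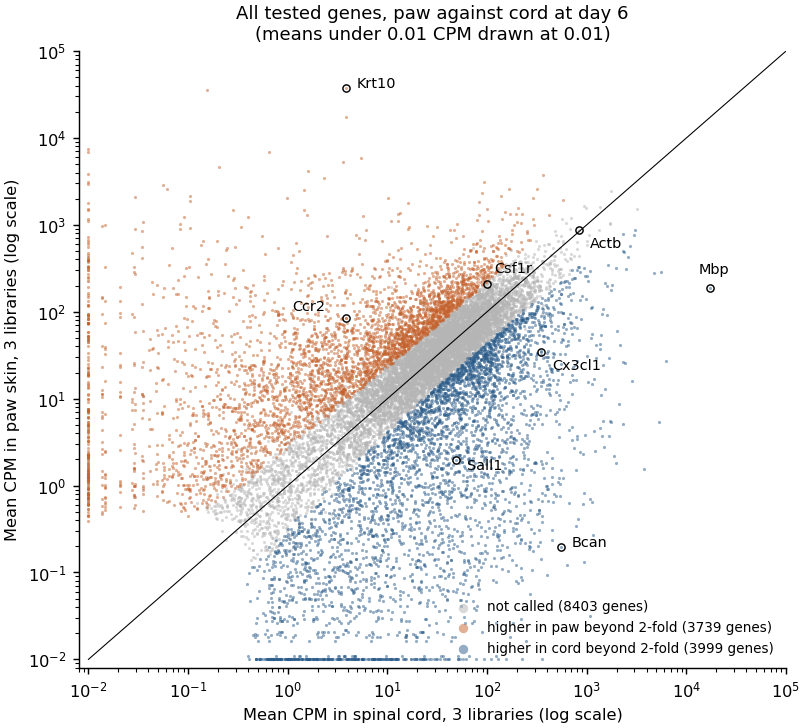
Mean CPM in spinal cord (horizontal, log scale) against mean CPM in paw skin (vertical, log scale) for the 16141 genes tested, each mean over 3 libraries, with the line of equal level. Orange points are the 3739 genes higher in paw beyond 2-fold, blue points the 3999 higher in cord and grey points the rest; Krt10 and Mbp lie at the far ends while Actb and Csf1r lie near the line.

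The tissue labels were met by their defining genes. Krt10, a keratin of the upper epidermis, had 34722, 37761 and 41675 CPM in the paw libraries and 3.06, 4.89 and 3.45 CPM in the cord libraries. Mbp, the myelin basic protein, had 232, 159 and 173 CPM in paw and 16262, 19363 and 15841 CPM in cord. All 13 differentiated keratinocyte genes tested were higher in paw, as were 8 of 10 basal keratinocyte genes. All 12 neuronal genes, all 14 oligodendrocyte genes and all 7 genes of cholinergic motor neurons were higher in cord. Some defining genes had no read in the other tissue, among them 3 of 14 oligodendrocyte genes and 5 of 13 differentiated keratinocyte genes. Others were not at 0. Summed levels were 242 to 344 CPM for oligodendrocyte genes in paw and 611 to 635 CPM for basal keratinocyte genes in cord. Dsc1, a desmosomal cadherin of the epidermis, had no read in the cord libraries and 2362, 3089 and 3834 CPM in paw, at least 64806-fold higher against a floor of 3 counts over the 3 cord libraries. Gad2, the enzyme that makes GABA in nerve terminals, had no read in paw and 134, 122 and 127 CPM in cord, at least 4478-fold higher.

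Not every gene of such lists told the tissues apart. Of 12 astrocyte genes 9 were higher in cord, and the gap junction genes were not among them. Gja1 (connexin 43) had 547, 708 and 723 CPM in paw and 529.9, 527 and 501 CPM in cord, with a 95% interval of the log2 fold change of 0.02 to 0.67. Gjb6 (connexin 30) had 128, 167 and 168 CPM in paw and 124, 157 and 146 CPM in cord, with an interval of -0.21 to 0.45. Both connexins are also known from the epidermis.

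Dermal and shared macrophage genes lay mostly toward paw, while microglial genes went both ways. Of 15 microglial genes tested, 4 were higher in cord beyond 2-fold, 1 was higher in paw and 5 had an interval within 2-fold, with a median log2 fold change of -0.36 (positive is higher in paw throughout) against 0.003 for all genes. Of 17 genes of monocyte-derived and dermal macrophages, 15 were higher in paw and 0 in cord, with a median of 4.79. Of 22 genes that macrophages of any tissue share, 12 were higher in paw and 0 in cord, with a median of 1.74. These counts stand beside 23.2% of all genes higher in paw and 24.8% higher in cord. The count of microglial genes higher in cord was close to that share of all genes.

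The 4 microglial list members higher in cord include the transcription factor that keeps microglial identity. Sall1 had 1.46, 2.9 and 1.61 CPM in paw and 47, 48.2 and 50.3 CPM in cord. All cord libraries lay far above all paw libraries, 24.4-fold on the means (1.99 ± 0.789 against 48.5 ± 1.66 CPM, SD, n = 3), with a log2 fold change of -4.59 ± 0.26 (SE) and an adjusted p of 4e-06. SALL1 is also made outside the macrophage lineage, in kidney and in neural progenitors for example. Siglech, a sialic acid-binding lectin of microglia and plasmacytoid dendritic cells, had 1.2, 1.15 and 1.64 CPM in paw and 8.59, 10.5 and 9.61 CPM in cord. Cx3cr1, the receptor for fractalkine, had 8.67, 7.59 and 5.13 CPM in paw and 44.5, 33.1 and 35.6 CPM in cord, and Fcrls, an Fc receptor-like gene of microglia, had 2.84, 1.67 and 2.69 CPM against 13.7, 10.3 and 9.73 CPM. These 3 were 7.17-fold, 5.29-fold and 4.68-fold higher in cord, with adjusted p of 3.6e-05, 0.00017 and 0.00084.

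Other genes used to mark microglia did not separate the tissues beyond 2-fold. P2ry12, the ADP receptor that steers microglial processes, had 15.7, 15.8 and 11.6 CPM in paw and 27.4, 29 and 23.2 CPM in cord, a log2 fold change of -0.88 with an interval of -1.26 to -0.51. Tmem119 lay the other way, at 25.9, 26.8 and 21.4 CPM in paw and 13.8, 16.9 and 17.5 CPM in cord, with an interval of 0.29 to 0.96. Neither gene's groups overlapped, and neither passed the 2-fold test. Ltc4s, the leukotriene C4 synthase of mast cells and macrophages, was the microglial list member higher in paw, at 5.77, 4.71 and 3.71 CPM against 1.42, 1.06 and 0.801 CPM (log2 fold change 2.10 ± 0.29, adjusted p 0.0026). Without paw library 3, or against cord library 2 alone, 2 members of this list were higher in paw and 4 in cord.

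Dermal macrophage genes were many times higher in paw. Mrc1, the mannose receptor, had 204, 216 and 122 CPM in paw and 8.59, 4.03 and 6.96 CPM in cord, 27.7-fold higher (181 ± 51.5 against 6.53 ± 2.31 CPM, log2 fold change 4.79 ± 0.37, adjusted p 4.3e-05). Cd163, the haptoglobin-haemoglobin scavenger receptor, had 122, 125 and 58.7 CPM in paw and 2.66, 1.38 and 3.63 CPM in cord. Lyve1, a hyaluronan receptor of perivascular macrophages and lymphatic vessels, had 115, 119 and 40.1 CPM in paw and 1.95, 1.67 and 2.46 CPM in cord. Paw library 3 was the lowest paw library for each of these genes, and its summed level of the list was 792 CPM against 1313 and 1305 CPM in paw libraries 1 and 2. F13a1, the A subunit of coagulation factor XIII, had 311, 287 and 176 CPM in paw and 13.3, 4.11 and 7.89 CPM in cord. Clec10a, a galactose-binding lectin, was more even within paw, at 19.6, 16.4 and 16.9 CPM against 0.797, 0.652 and 0.924 CPM. The 2 members not called, Ly6c2 and Chi3l3, had log2 fold changes of -1.25 and -1.40. Both belong to families of near-identical genes, whose shared reads may go uncounted. Ly6c2, a marker of inflammatory monocytes, had 0.849, 1.74 and 0.329 CPM in paw and 4.96, 0.692 and 1.42 CPM in cord. Chi3l3, a chitinase-like protein of myeloid cells, had 5.59, 8.13 and 2.07 CPM in paw and 28.9, 4.32 and 8.5 CPM in cord. Without cord library 1 these fold changes were -0.02 and -0.22, and that of Ly6c2 was -1.98 without paw library 2. Against cord library 2 alone they were 0.47 and 0.25, and those of Mrc1, Cd163 and F13a1 were 5.45, 6.16 and 5.94.

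**Figure D3:**
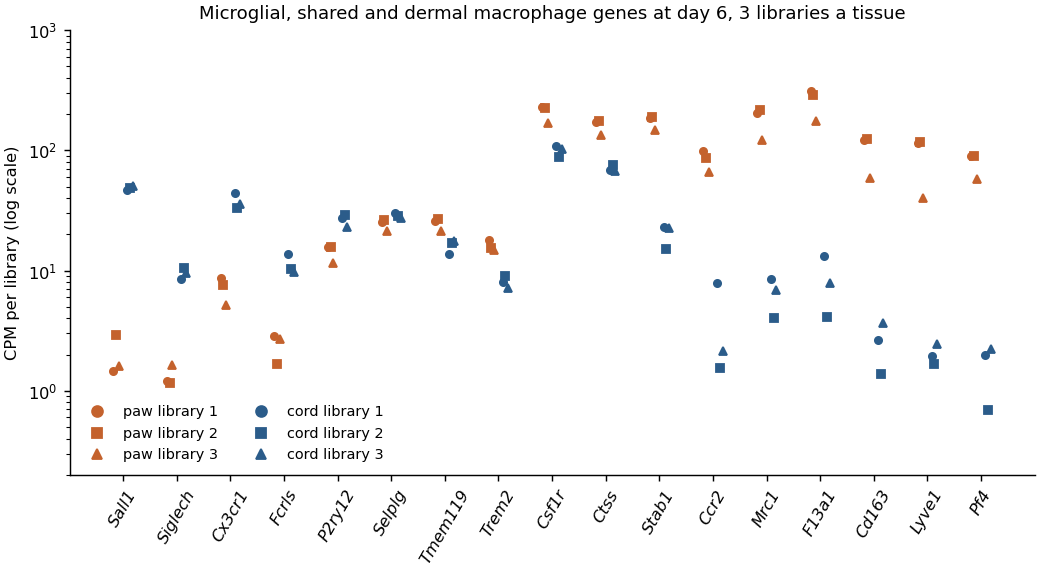
CPM per library (log scale) of microglial genes (left), genes shared by macrophages (middle) and dermal macrophage genes (right) on day 6, paw in orange and cord in blue, 3 libraries a tissue. Sall1, Siglech, Cx3cr1 and Fcrls lie higher in cord, Stab1 to Pf4 lie higher in paw, and the genes from P2ry12 to Ctss lie closer together.

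Neither the receptor that both kinds of macrophage depend on nor its 2 ligands passed the 2-fold test. Csf1r had 231, 225 and 169.9 CPM in paw and 109, 88.7 and 103 CPM in cord, 2.08-fold higher in paw without passing the 2-fold test (log2 fold change 1.06 ± 0.15, adjusted p 0.28), although it passed without paw library 3. Csf1, the first of its ligands, had 79.2, 76.9 and 56.5 CPM in paw and 58.8, 69.6 and 69.2 CPM in cord, and the groups overlapped, with an interval of -0.24 to 0.45. Il34, the second ligand, known from neurons and keratinocytes, had 41.3, 42.3 and 47.7 CPM in paw and 35.5, 19.4 and 40.9 CPM in cord, with an interval of -0.15 to 1.06. Against cord library 2 alone the log2 fold change of Il34 was 1.14.

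The chemokine system showed opposed ligand and receptor pairs. Cx3cl1, the fractalkine that neurons display, had 41, 28.4 and 34.7 CPM in paw and 337, 353 and 359.6 CPM in cord, 10.1-fold higher in cord (log2 fold change -3.33 ± 0.15, adjusted p 1.3e-06), the same direction as its receptor Cx3cr1. Ccl2, which draws monocytes, had 29, 16.8 and 19.4 CPM in paw and 0.133, 0.0815 and 0.185 CPM in cord, 163-fold higher in paw (log2 fold change 7.37 ± 0.37, adjusted p 1.4e-06). Its receptor Ccr2 had 98.9, 86.8 and 66.3 CPM in paw and 7.88, 1.55 and 2.16 CPM in cord (log2 fold change 4.43 ± 0.62, adjusted p 0.0014). Both pairs thus lay on 1 side each, with no overlap between tissues. Without cord library 1, the cord library with the most neutrophil gene signal, the value for Ccr2 was 5.56. Against cord library 2 alone the values for Ccr2 and Ccl2 were 5.73 and 7.97.

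Homeostatic chemokines were shared between the tissues to a varying degree. Cxcl12, a retention signal made by stromal cells, had 259, 266 and 201 CPM in paw and 82.7, 56.4 and 61 CPM in cord, 3.63-fold higher in paw (adjusted p 0.00057). Cxcl14, a chemokine of epithelia and neurons, had 72.8, 102 and 69.2 CPM in paw and 69.9, 94.3 and 68 CPM in cord, with overlapping groups and an interval of -0.37 to 0.51. Of 21 chemokine ligands tested 14 were higher in paw and 3 in cord, with a median log2 fold change of 2.96. Among 15 chemokine receptors 7 were higher in paw and 3 in cord, or 6 and 1 without cord library 2. Ccl27a, a skin-homing chemokine known from keratinocytes, went against that name, at 1.32, 1.1 and 0.953 CPM in paw and 9.08, 10.7 and 13 CPM in cord (log2 fold change -3.27 ± 0.23, adjusted p 1.7e-05). Ccl27a has near-identical gene copies in the mouse, so its counts are uncertain. Ccl19 and Ccl21a, the lymphoid chemokines that LTβR is known to control, had no counted read in any of the 6 libraries. Ccl21a also has near-identical copies.

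Cells of the skin barrier were seen in paw. Of 11 mast cell genes 8 were higher in paw and 0 in cord, with a median log2 fold change of 8.20. Cma1, a mast cell chymase, had 11.2, 20.2 and 14.6 CPM in paw and 0, 0 and 0.0616 CPM in cord. That is a single cord read, in library 3, and a ratio of 748 with a counting interval of 178 to 39278, which covers counting error only. Cd207, the langerin of Langerhans cells, had 9.49, 9.38 and 17.1 CPM in paw and 0, 0 and 0.0616 CPM in cord, again 1 read, in cord library 3, and a ratio of 583 (counting interval 132 to 29156). Without that library the fitted log2 fold changes were 11.88 for Cma1 and 11.52 for Cd207, and against cord library 2 alone 11.95 and 11.60, in place of 9.56 and 9.20; with no cord read these depend on the fit's prior count. Without paw library 2, Hdc made 1 mast cell gene higher in cord. Of 11 dendritic and Langerhans cell genes tested 5 were higher in paw, 1 in cord and 5 were not called, with a median of 2.01. Cd207 had the highest log2 fold change of that list. Flt3, the receptor tyrosine kinase of dendritic cell progenitors, ran against its list, with 2.25, 2.21 and 2.86 CPM in paw and 38, 45.4 and 36.4 CPM in cord (log2 fold change -4.04 ± 0.16, adjusted p 5.9e-07). Among 7 T and NK cell genes that could be tested 4 were higher in paw, all at low levels. Cd4, the T helper coreceptor that some macrophages also carry, had 2.05, 3.04 and 1.64 CPM in paw and 0.266, 0.163 and 0.123 CPM in cord.

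Of the genes of antigen presentation, 6 of 9 MHC class II and 6 of 13 class I genes were higher in paw beyond 2-fold, and class II levels in cord differed by library. H2-Aa, an MHC class II α chain, had 163, 192 and 221 CPM in paw and 38.3, 7.98 and 22.5 CPM in cord (log2 fold change 3.07 ± 0.55, adjusted p 0.0062). Cd74, the invariant chain, had 271, 315 and 336 CPM in paw and 88.9, 14.6 and 60.9 CPM in cord. Its call (log2 fold change 2.49 ± 0.61, adjusted p 0.03) was lost without paw library 1, 2 or 3 or cord library 3, at 2.58, 2.48, 2.43 and 2.61, and with DESeq2, limma voom and scaling to housekeeping genes. Without cord library 1 the values of H2-Aa and Cd74 were 3.71 and 3.08, and against cord library 2 alone 4.56 and 4.37. Without cord library 3, 5 of 10 MHC class II genes were higher in paw and 1 in cord. H2-DMa, which loads peptides, had 13.2, 14.3 and 15.3 CPM in paw and 19.3, 7.7 and 16 CPM in cord, with overlapping groups and an interval of -0.73 to 0.72, and against cord library 2 alone it was 0.86. Of the 7 class I genes not called, 3 had an interval within 2-fold. H2-D1, a classical heavy chain from a family of near-identical genes, had 347, 371 and 315 CPM in paw and 126, 93.8 and 109 CPM in cord (log2 fold change 1.65 ± 0.14, adjusted p 0.00049). Nlrc5, the class I transactivator, had 22.7, 18.7 and 18.4 CPM against 2.48, 1.83 and 1.66 CPM, 10.0-fold higher.

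Complement and pattern recognition genes were mostly higher in paw. Of 20 complement genes 14 were higher in paw and 0 in cord, with a median log2 fold change of 2.07. C3, the central component, had 913, 1135 and 601 CPM in paw and 41.3, 44.1 and 42.8 CPM in cord, 20.7-fold higher (log2 fold change 4.37 ± 0.25, adjusted p 3.7e-06). C1qc, a C1q chain made by macrophages and microglia, had 153, 142 and 97.5 CPM in paw and 38.8, 35.3 and 36.5 CPM in cord (log2 fold change 1.83 ± 0.17). Cfd, the adipocyte serine protease also called adipsin, had 155, 147 and 107 CPM against 0.221, 0.326 and 0.431 CPM. Of 15 genes of Toll-like receptor sensing 12 were higher in paw and 1 in cord. Tlr4, the lipopolysaccharide receptor, had 27, 25.8 and 15 CPM in paw and 1.2, 1.26 and 1.36 CPM in cord, and Myd88, the shared adaptor, 48.7, 56.5 and 49.2 CPM against 13.4, 10.5 and 11.6 CPM. Interferon-stimulated genes did not share this. By edgeR, DESeq2 and limma voom alike 0 of 18 were higher in either tissue beyond 2-fold, with a median log2 fold change of -0.26, and at an unadjusted p under 0.05 of edgeR's F test 1 was higher in paw and 5 in cord, where 81.5% of all genes passed that threshold. Leaving out cord library 2 gave 1 higher in cord, leaving out cord library 3 gave 1 higher in paw, and cord library 2 alone gave 2 higher in paw. The summed level of these genes was 253, 154 and 355 CPM in the cord libraries and 207, 231 and 154 CPM in the paw libraries.

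Cytokines divided by gene. Of 17 tested 8 were higher in paw and 1 in cord. Il33, an alarmin stored in nuclei, was that gene, with 14.4, 24.7 and 10.7 CPM in paw and 128, 169.8 and 123 CPM in cord (log2 fold change -3.08 ± 0.33, adjusted p 0.00042). Il18, an inflammasome cytokine, had 81.1, 87.3 and 106 CPM in paw and 17.9, 21.5 and 19.5 CPM in cord (log2 fold change 2.22 ± 0.13). Il1rn, the IL-1 receptor antagonist, known from keratinocytes, had 86.1, 107 and 124 CPM in paw and 1.33, 0.244 and 0.493 CPM in cord (log2 fold change 7.24 ± 0.46), with 8.27 without cord library 1 and 8.71 against cord library 2 alone.

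The LTβR pathway was measured in both tissues from ligand to target. Of its 27 genes 22 could be tested, 7 were higher in paw and 0 in cord beyond 2-fold, with a median log2 fold change of 1.03 and 6 intervals within 2-fold, and scaling to housekeeping genes made this 6 and 1. The ligands were low in both. Ltb, which anchors lymphotoxin to the membrane, had 0.849, 1.01 and 0.953 CPM in paw and 0.842, 0.407 and 0.678 CPM in cord (log2 fold change 0.55, or 1.16 against cord library 2 alone), and Lta had too few reads to be tested. The receptor itself, Ltbr, had 51.1, 49 and 41.6 CPM in paw and 25.3, 21.5 and 27 CPM in cord, a log2 fold change of 0.94 ± 0.13 with an interval of 0.64 to 1.24 that did not pass the 2-fold test. Of the adaptors and kinases, Traf3, which holds NIK down, was lower in paw, at 62.5, 49 and 49.5 CPM against 82.6, 90.1 and 84.2 CPM in cord (interval -0.95 to -0.40, within 2-fold). Map3k14, which encodes NIK, was higher in paw, at 27.5, 22.9 and 19.3 CPM against 6.64, 4.76 and 7.52 CPM (log2 fold change 1.88 ± 0.21, adjusted p 0.0012).

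The transcription factors of the non-canonical arm were higher in paw beyond 2-fold. Nfkb2, which encodes p100 and p52 and is itself an NF-κB target, had 72.6, 55.7 and 54.9 CPM in paw and 9.3, 4.28 and 12.8 CPM in cord, 6.96-fold higher (log2 fold change 2.81 ± 0.38, adjusted p 0.0017). Relb had 28.2, 23.1 and 26.6 CPM in paw and 7, 6.15 and 6.65 CPM in cord, 3.94-fold higher (adjusted p 5.9e-05). Rela and Nfkb1, the canonical pair, had log2 fold changes of 0.60 ± 0.11 and 0.99 ± 0.12 and did not pass; whether the arms differ from each other was not tested. Among targets, Birc3, an inhibitor of apoptosis, had 32.6, 32.8 and 28.3 CPM in paw and 4.92, 2.44 and 4.25 CPM in cord (log2 fold change 3.02 ± 0.25). Icam1, the adhesion molecule, had 36.6, 40.3 and 30 CPM in paw and 5.09, 5.21 and 4.31 CPM in cord (log2 fold change 2.87 ± 0.16), while Vcam1, its counterpart for VLA-4, had 21.9, 21 and 18 CPM in paw and 32.4, 36 and 29.8 CPM in cord (interval -0.98 to -0.40). Against cord library 2 alone Nfkb2 was 3.81 and Birc3 3.64. Paw was the injected site and its epidermis is absent from cord; with no untreated library in the contrast, the share of these differences that belongs to the antibody cannot be told apart from that of the tissue.

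Stromal genes followed a division between interstitial and neural matrix. Of 15 fibrillar and associated collagens 9 were higher in paw and 3 in cord. Col1a1 and Col3a1, the main dermal collagens, had 1846, 1501 and 847 CPM and 4034, 3268 and 2132 CPM in paw, against 226, 55.8 and 177 CPM and 124, 26.3 and 131 CPM in cord (log2 fold changes 3.19 ± 0.58 and 5.07 ± 0.70, adjusted p 0.0063 and 0.0011). The cord values followed the cord library, and against cord library 2 alone the fold changes were 4.62 and 6.87. Collagens known from cartilage and the eye were higher in cord. Col11a2 had 3.04, 1.99 and 2.6 CPM in paw and 57.4, 69.1 and 57.7 CPM in cord (log2 fold change -4.60 ± 0.19), and Col2a1 and Col11a1 were also higher there, at -6.08 ± 0.32 and -3.74 ± 0.22. Of 17 fibroblast genes 13 were higher in paw and 0 in cord, with 1 higher in cord without cord library 2. Dcn, the proteoglycan decorin, had 2670, 2692 and 2400 CPM in paw and 451, 97.3 and 398 CPM in cord (log2 fold change 3.04 ± 0.56, or 4.70 against cord library 2 alone). Postn, the matrix protein periostin, had 378, 233 and 158 CPM in paw and 2.26, 1.26 and 2.16 CPM in cord, 135-fold higher. Ogn, osteoglycin of connective tissue sheaths, ran the other way without passing, at 39.7, 28.5 and 26.3 CPM in paw and 305, 30.1 and 258 CPM in cord (log2 fold change -2.65 ± 0.80, adjusted p 0.057). It passed without cord library 2 and was 0.04 against cord library 2 alone.

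The matrix of the nervous system was the stromal list with most members in cord. Of 14 such genes 10 were higher in cord and 3 in paw, or 9 and 1 without paw library 2. Bcan, the proteoglycan brevican of perineuronal nets, had 0.117, 0.246 and 0.23 CPM in paw and 529.99, 573 and 555 CPM in cord, 2797-fold higher (log2 fold change -11.41 ± 0.22). Cspg5, neuroglycan C, had 0.703, 0.54 and 0.756 CPM in paw and 120, 129 and 126 CPM in cord. Cspg4, the NG2 proteoglycan of pericytes and oligodendrocyte progenitors, was close between the tissues, at 61, 54.1 and 52.4 CPM against 34.9, 29.6 and 37 CPM (interval 0.45 to 0.99). Of 23 basement membrane genes 9 were higher in paw and 1 in cord, and the 13 not called had intervals that reached past 2-fold. That list moved with the cord library, at 11 and 2 without cord library 2 and 18 and 1 with cord library 2 alone. Col4a1, a collagen of all basement membranes, had 284, 265 and 193 CPM in paw and 261, 67.5 and 267 CPM in cord, with 1.84 against cord library 2 alone in place of 0.32. Metalloproteinases and their inhibitors went both ways, with 9 of 22 higher in paw and 6 in cord, beside 23.2% and 24.8% of all genes. The count in cord was close to that share of all genes. Mmp2, a gelatinase of fibroblasts, had 340.1, 319.9 and 235 CPM in paw and 17.1, 7.21 and 15.4 CPM in cord, while Mmp24, a membrane-bound member known from neurons, had 0.586, 0.663 and 0.46 CPM in paw and 41.8, 42 and 48.1 CPM in cord. Against cord library 2 alone Mmp2 was 5.34 in place of 4.50.

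Meningeal fibroblast genes divided as well, with 4 of 11 higher in paw and 2 in cord, or 4 and 6 of 12 without cord library 2. Ptgds, the prostaglandin D synthase of meninges, choroid plexus and oligodendrocytes, had 0.527, 0.884 and 1.08 CPM in paw and 831, 1147 and 819 CPM in cord (log2 fold change -10.13 ± 0.33). Ptgds was high in every cord library, cord library 2 included. Slc6a13, a GABA and taurine transporter of the leptomeninges, had 1.79, 0.909 and 1.02 CPM in paw and 28.2, 10.1 and 20.5 CPM in cord, with a log2 fold change of -3.98 ± 0.46 and of -3.05 against cord library 2 alone.

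Vessel genes showed shared and tissue-bound parts. Of 16 genes of endothelium in any tissue 2 were higher in paw and 0 in cord, and 6 had an interval within 2-fold. Pecam1 (CD31) was higher in paw, at 173, 153 and 146 CPM against 53.3, 45.6 and 44.9 CPM (log2 fold change 1.72 ± 0.11, adjusted p 0.00011), and so was Cd93, a C-type lectin of angiogenic endothelium, at 113, 94.5 and 73.7 CPM against 22.5, 17.3 and 22.2 CPM. Esam, an endothelial adhesion molecule, had 38.4, 30.4 and 28.5 CPM in paw and 39.2, 34.3 and 40.8 CPM in cord (interval -0.56 to 0.09). Barrier and peripheral genes went apart. Of 14 genes of blood-brain barrier endothelium 8 were higher in cord and 0 in paw. Slc7a5, a large neutral amino acid transporter of the barrier, had 42.4, 65.3 and 58 CPM in paw and 164, 164 and 185 CPM in cord (log2 fold change -1.63 ± 0.16, adjusted p 0.0015). Of 9 genes of peripheral endothelium 6 were higher in paw and 1 in cord, or 6 and 0 without cord library 2. Plvap, which builds the diaphragms of fenestrated capillaries, had 114, 118 and 87.4 CPM in paw and 17, 17.5 and 17.6 CPM in cord, 6.13-fold higher, and Cd36, a fatty acid receptor of capillaries and adipocytes, had 213, 178 and 121 CPM against 4.61, 2.65 and 4.13 CPM. Among 13 mural cell genes 7 were higher in paw and 1 in cord, with Acta2, the smooth muscle actin, at 262, 282 and 227 CPM against 48.2, 64.5 and 53.5 CPM. The exception was Vtn, vitronectin, a gene of cord pericytes, at 8.84, 4.74 and 5.82 CPM against 173, 101 and 154 CPM (log2 fold change -4.46 ± 0.32).

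Counted over single genes, 115 of 240 immune genes tested were higher in paw (47.9%) and 18 in cord (7.5%), with a median log2 fold change of 1.42. Of 156 stromal genes 62 were higher in paw (39.7%) and 32 in cord (20.5%), with a median of 0.92. The lists were chosen with such genes in mind and no test compares them with the rest of the genes. Reference genes showed how far scaling could carry this: 9 of 15 housekeeping genes had an interval within 2-fold and their median log2 fold change was 0.21. Actb had 836, 875 and 896 CPM in paw and 891, 825 and 769 CPM in cord. Rplp0, a ribosomal protein gene with many processed copies, departed from this, at 786, 764 and 991 CPM against 90.7, 77.9 and 95.5 CPM, and its counts are uncertain.

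**Figure D4:**
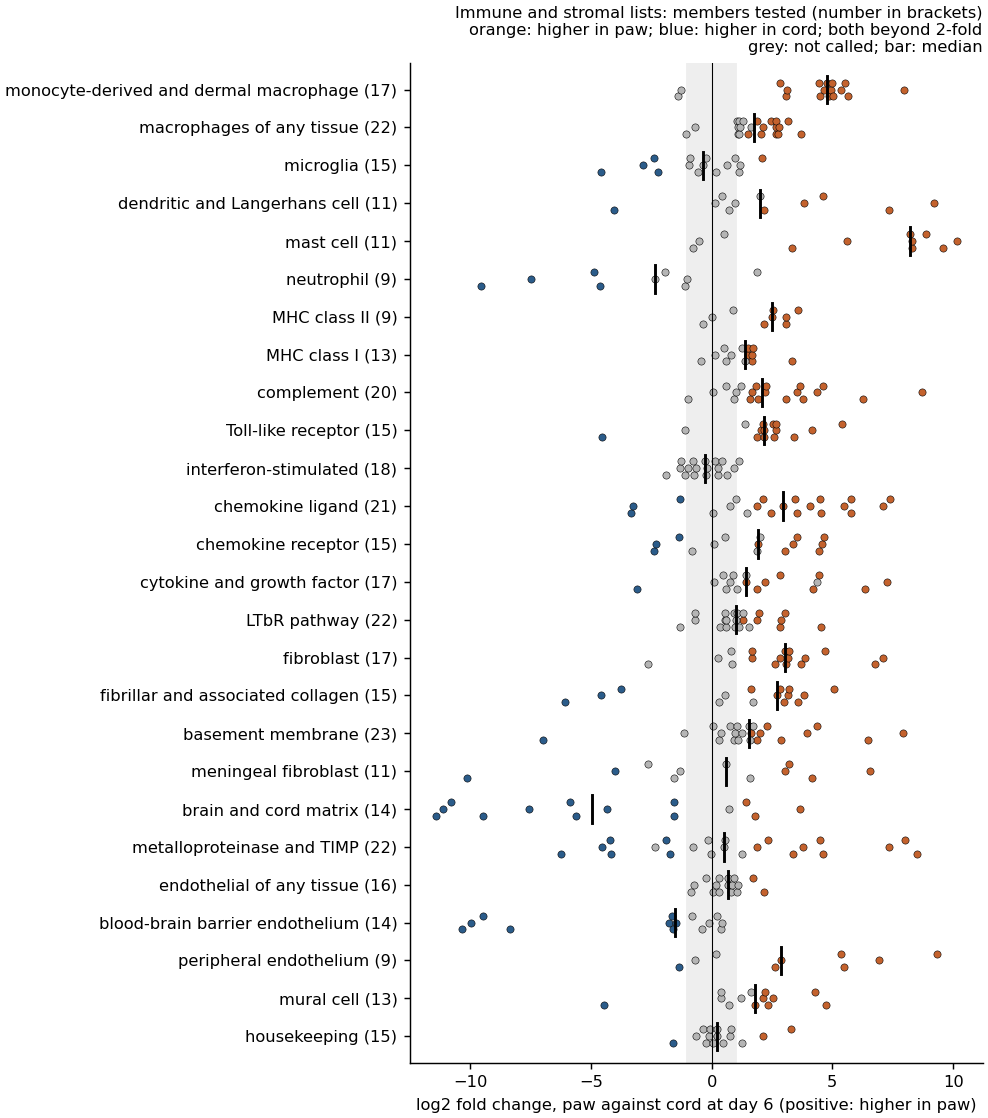
Log2 fold change of paw against cord on day 6 (horizontal) for each tested member of 26 lists, with the number tested in brackets. Orange points are higher in paw beyond 2-fold, blue points higher in cord, grey points not called, and the bar is the list's median; the shaded band is 2-fold, and the medians run from 8.20 for mast cell genes to -4.96 for the brain and cord matrix.

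The same contrast could be made on day 1, in libraries that the day 6 contrast does not use. There 15985 genes were tested and 8093 differed beyond 2-fold (50.6%), with 4006 higher in paw (25.1%) and 4087 higher in cord (25.6%). Of the 3637 genes called higher in paw on day 6 that were tested on day 1, 3418 (94.0%) were called there too, and of 3932 called higher in cord 3703 (94.2%), with 0 called the other way. Read from day 1, the shares were 86.5% of 3951 and 91.4% of 4053. Several named genes show the size of this. Sall1 was at -4.82 on day 1 in log2 fold change, Cx3cl1 at -3.37, Mrc1 at 3.55, Col3a1 at 5.76 and Bcan at -11.60. Of the 44 lists 11 had the same counts higher in paw and in cord on both days and 33 had other counts, 9 of them by 3 genes or more. Of 23 basement membrane genes 19 were higher in paw on day 1 against 9 on day 6, of 13 mural cell genes 10 against 7, of 13 MHC class I genes 9 against 6, of 18 interferon-stimulated genes 3 against 0 and of 16 genes of endothelium in any tissue 5 against 2. The genes shared by macrophages went from 8 of 21 higher in paw to 12 of 22 and Toll-like receptor genes from 8 of 14 to 12 of 15, while 0 of 8 Schwann cell genes were higher in cord on day 1 against 3 on day 6. Whether these counts differ was not tested. Of the 15 microglial genes 7 were higher in cord on day 1 against 4 on day 6, Csf1r was at -0.34 on day 1 against 1.06 on day 6, and P2ry12 was at -2.51 against -0.88. Whether a gene's difference changed between the days is a separate test, given next.

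Between the days, 11 genes of the macrophage, microglia and complement lists rose in paw against cord. The change of the tissue difference was tested over 12 libraries as paw day 6 minus paw day 1, less cord day 6 minus cord day 1, in which a constant offset between the tissues cancels. Day 6 also differs from day 1 by the second injection. Of 16415 genes 42 passed an adjusted p of 0.05 (0.256%), with 30 rising toward paw (0.183%) and 12 falling (0.0731%), while 13.9% had an unadjusted p under 0.05. For all 30 that rose, the paw mean was higher on day 6 than on day 1, by 1.47 to 4.4 times, while the cord mean was 0.814 to 1.11 times that of day 1. For all 12 that fell, the paw mean was lower on day 6, and for 10 of them the cord mean was higher. For Fabp4 the paw mean was 0.717 times and the cord mean 4.15 times that of day 1. Those 11 were among the 30. The change was positive for 21 of the 22 genes shared by macrophages (median log2 1.00, 3 called), 12 of the 15 microglial genes (1.17, 3 called), 13 of the 17 dermal macrophage genes (1.07, 0 called) and 12 of the 20 complement genes (0.25, 5 called), against 8218 of 16415 genes in all. Lists of other cell types went both ways in the same test. Medians were positive for genes of dendritic and Langerhans cells (0.55, 7 of 11 positive) and of differentiated keratinocytes (0.33, 10 of 13). They were also positive for genes of T and NK cells (0.12, 4 of 7), neurons (0.10, 8 of 12) and lymphatic endothelium (0.10, 3 of 6). Other lists had negative medians. The change was positive for 0 of 13 skeletal muscle genes (median log2 -2.39), 1 of 9 neutrophil genes (-2.78), 1 of 8 Schwann cell genes (-1.39), 2 of 10 adipocyte genes (-1.15), 2 of 23 basement membrane genes (-0.69), 1 of 15 fibrillar and associated collagens (-0.68), 1 of 13 mural cell genes (-0.67) and 2 of 16 genes of endothelium in any tissue (-0.34). Of the lists just named with negative medians only the adipocyte list held a called gene, Fabp4. Further lists with negative medians held 1 called gene each. They were blood-brain barrier endothelium (-0.33, Slc16a1), metalloproteinases and their inhibitors (-0.32, Adamts1) and cytokines (-0.049, Csf1r, which itself rose). Interferon-stimulated genes had a median of -0.74, with 1 of 18 positive and 0 called. The part that changes in other cell types play in the macrophage values was not tested.

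Selplg, the selectin ligand PSGL-1 of leukocytes and microglia, gave the smallest p. In the fit to 12 libraries it had 9.22, 10.8 and 8.88 CPM in paw on day 1, 25.2, 26.2 and 21.2 CPM in paw on day 6, 30.9, 29.3 and 31.6 CPM in cord on day 1 and 30, 28.4 and 27.1 CPM in cord on day 6. Paw came nearer to the cord's level, with each paw library of day 6 still below each cord library, while cord stayed between 27.1 and 31.6 CPM (log2 change 1.43 ± 0.15, adjusted p 0.0074). Ctss, the lysosomal protease cathepsin S of antigen-presenting cells, had 50.6, 58.7 and 43.5 CPM in paw on day 1, 170.2, 176 and 133 CPM in paw on day 6, 67.4, 71.5 and 72 CPM in cord on day 1 and 67.9, 75.4 and 67.3 CPM in cord on day 6. Its paw libraries crossed from below all cord libraries to above them (log2 change 1.65 ± 0.18, adjusted p 0.0074). Csf1r had 81.2, 91.6 and 70.5 CPM in paw on day 1, 229, 224 and 169 CPM in paw on day 6, 100.2, 111 and 99.5 CPM in cord on day 1 and 108, 88.1 and 102 CPM in cord on day 6 (log2 change 1.41 ± 0.19, adjusted p 0.020). Its paw libraries lay below the cord libraries of their own day on day 1 and above them on day 6. Trem2, a lipid-sensing receptor of microglia and macrophages, had 5.74, 6.31 and 4.34 CPM in paw on day 1, 17.7, 15.3 and 14.7 CPM in paw on day 6, 9.15, 7.8 and 8.73 CPM in cord on day 1 and 8.01, 8.98 and 7.1 CPM in cord on day 6 (log2 change 1.63 ± 0.22, adjusted p 0.020). C1qc had 46, 61.9 and 38 CPM in paw on day 1, 152, 141 and 96.8 CPM in paw on day 6, 36.9, 41.2 and 40.1 CPM in cord on day 1 and 38.5, 35.1 and 36.2 CPM in cord on day 6 (log2 change 1.52 ± 0.26, adjusted p 0.046). C3 went from 209, 319 and 215 CPM to 906, 1129 and 597 CPM in paw, with 37.3 to 43.8 CPM in every cord library (log2 change 1.72 ± 0.30, adjusted p 0.048).

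Genes that fell were of other kinds. Adamts1, a secreted protease that cuts versican, had 75.3, 70 and 62 CPM in paw on day 1, 28.6, 37.8 and 38.3 CPM in paw on day 6, 18.3, 17.7 and 16.2 CPM in cord on day 1 and 24.8, 24.9 and 23.9 CPM in cord on day 6 (log2 change -1.48 ± 0.17, adjusted p 0.0074). Here both tissues moved, in opposite directions.

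The number of genes that changed depended on single libraries. It was 8 without paw day 6 library 2, 80 without paw day 6 library 3, and 10 without paw day 1 library 1. In cord it was 10, 18 and 7 without day 6 library 1, 2 and 3, and 10, 3 and 4 without day 1 library 1, 2 and 3. It was 48, 32 and 55 without paw day 6 library 1, paw day 1 library 2 and paw day 1 library 3. Selplg, Ctss and Adamts1 passed in each of these 12 fits. Csf1r lost its call in 6 (without paw day 6 library 2, paw day 1 library 1, cord day 6 library 3 or any cord day 1 library, and also with scaling by library size alone) and Trem2 in 7 (those 6 and cord day 6 library 1). C1qc and C3, whose adjusted p lay close to the threshold, passed in 3 and 2 of the 12.

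**Figure D5:**
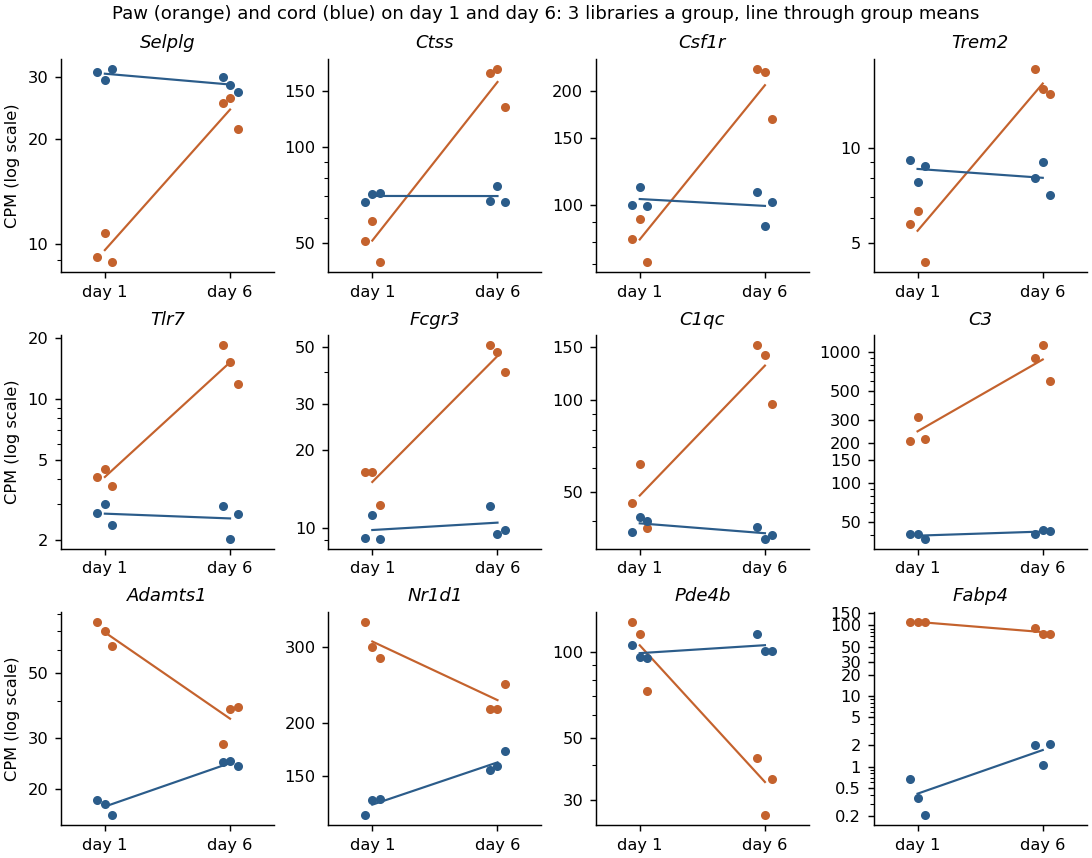
CPM (log scale) of 12 genes on day 1 and day 6, paw in orange and cord in blue, with 3 libraries a group and a line through the group means. In the first 8 panels the paw line climbs and the cord line stays nearly level. In Adamts1, Nr1d1, Pde4b and Fabp4 the paw line descends while the cord line climbs, least in Pde4b.

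Promoters of 4 of the genes that moved together toward paw are printed to show what they share in sequence. They are RefSeq windows of 300 bases on GRCm38.p6, from 250 before to 50 after the gene's start, in the gene's own direction, whereas the reads were counted on mm9. Ctss lies at chr3:95526536-95526835 on the plus strand, Trem2 at chr17:48346151-48346450 on the plus strand, C1qb at chr4:136886151-136886450 and C1qc at chr4:136892865-136893164, both on the minus strand. C1qb is the neighbour of C1qc in the genome and encodes another C1q chain, which also rose (log2 change 1.64 ± 0.27, adjusted p 0.038, passing in 3 of the 12 fits that leave out 1 library); it was chosen after its values were seen. Capitals mark GAGGAA or, on the other strand, TTCCTC, the purine-rich core bound by the myeloid factor PU.1, a motif chosen after the sequences were seen.
Ctss: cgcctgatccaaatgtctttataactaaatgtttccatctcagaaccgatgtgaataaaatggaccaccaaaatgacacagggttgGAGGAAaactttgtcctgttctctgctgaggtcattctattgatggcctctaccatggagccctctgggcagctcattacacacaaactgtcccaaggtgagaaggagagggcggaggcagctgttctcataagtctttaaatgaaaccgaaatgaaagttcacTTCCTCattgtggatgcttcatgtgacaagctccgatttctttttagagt
Trem2: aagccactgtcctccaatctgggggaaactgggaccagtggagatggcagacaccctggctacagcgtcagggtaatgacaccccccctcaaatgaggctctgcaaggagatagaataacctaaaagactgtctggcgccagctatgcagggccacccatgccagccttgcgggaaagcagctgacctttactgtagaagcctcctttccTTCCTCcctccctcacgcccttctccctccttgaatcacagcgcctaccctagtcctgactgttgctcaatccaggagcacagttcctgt
C1qb: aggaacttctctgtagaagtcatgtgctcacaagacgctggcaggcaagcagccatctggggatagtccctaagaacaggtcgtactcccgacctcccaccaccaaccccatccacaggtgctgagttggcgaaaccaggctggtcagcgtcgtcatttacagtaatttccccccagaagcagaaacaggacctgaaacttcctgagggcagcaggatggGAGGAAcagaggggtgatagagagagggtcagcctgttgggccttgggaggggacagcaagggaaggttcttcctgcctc
C1qc: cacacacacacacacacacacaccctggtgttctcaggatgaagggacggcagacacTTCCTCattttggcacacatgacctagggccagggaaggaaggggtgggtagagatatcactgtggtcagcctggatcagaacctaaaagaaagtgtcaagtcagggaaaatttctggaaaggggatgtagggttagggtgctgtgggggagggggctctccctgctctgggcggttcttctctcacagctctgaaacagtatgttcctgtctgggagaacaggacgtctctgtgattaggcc
Ctss held 2 matches, 1 on each strand, and the other promoters held 1 each. The 4 windows held 3 to 6 CpG dinucleotides. Of the genes tested on day 6, 11268 had a promoter in the table, of which 30.9% held the motif, with a median of 19 CpG. Among genes higher in paw the share was 32.9% of 2573 and among genes higher in cord 30% of 2717. Since the motif was chosen on the 4 printed promoters, the shares that follow leave those out. Of the other genes that rose toward paw 5 of 13 with a promoter held it (38.5%, median 13 CpG), and of the genes that fell 1 of 8. The shares were 10 of 15 genes shared by macrophages (66.7%), 9 of 14 dermal macrophage genes (64.3%), 4 of 9 microglial genes (44.4%), 3 of 7 neuronal genes (42.9%) and 1 of 9 differentiated keratinocyte genes (11.1%). A match is a run of letters and does not show that the factor binds there.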

How the data were processed

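RNA was sequenced as 50 bp single reads from a stranded polyadenylated RNA kit, per the labels' protocols. What the authors deposited were raw counts of reads for each gene symbol, in 1 file per library. Per the submitters' processing notes these were made with bcl2fastq, TopHat2, HTSeq and the mm9 build; versions, annotation and strand setting are not given in the sources used here. The 5 summary lines per file were removed. Reads that align at several positions go uncounted in HTSeq, which lowers genes with near-identical copies; non-unique alignments per unique read were 0.895 to 0.925 in paw and 0.562 to 0.623 in cord.

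Groups came from the labels. Of 24 replicate pairs 0 were identical, and there were 0 columns of other samples. Counts were fitted with edgeR 4.0.16 (limma 3.58.1, R 4.3.3): TMM factors, the default filter on low counts, robust quasi-likelihood fits, the F test and glmTreat at a log2 bound of 1, 2-sided, Benjamini-Hochberg over all genes tested, threshold 0.05. Day 6 and day 1 were fitted on 6 libraries each and the change between them on 12. CPM carry SD (n = 3) and log2 fold changes carry SE. Folds are ratios of mean CPM. For the folds of named genes, 0 reads in a tissue were set to a floor of 3 counts over its 3 libraries. Ratios resting on 1 to 3 reads carry a 95% counting interval. Levels of different genes are not compared, since gene lengths were not used.

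Of 587 symbols in 44 lists 579 were found under the symbol listed, 4 under an older one and 4 were unmatched. Members and lists were chosen with earlier results of these data known. All members of the LTβR, MHC class II, microglia and dermal macrophage lists and a few CSF1R and chemokine genes could be named; of other lists the 4 highest in either tissue, the extremes, the nearest to 0 and those against the majority; and the 10 smallest p in each direction of the change. Lists were not tested. Alternatives were other size factors, filters and tools, a replicate block, all 24 libraries and each library left out.

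On counts simulated from the day 6 libraries (16109 genes), the test against 2-fold recovered 98 of 100 genes changed 8-fold and 0 of 100 changed 2-fold, with 4 false calls among 102. A 2-fold change lies on the bound of that test, so such genes could hardly pass. Only the changed genes differed between the tissues in this simulation, whereas 47.9% of real genes differed beyond 2-fold. It therefore does not show how scaling and spread estimates behave when so many genes differ. For the change between days (16432 genes) 41 of 100 genes changed 2-fold and 69 of 100 changed 4-fold were recovered.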

Additional observations from a re-analysis of the deposited data

Results flagged for a closer look

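The tests of the change between day 1 and day 6 picked out genes whose paw against cord difference was not the same on both days. Values are log2 changes of paw against cord with positive values rising toward paw, in the fit to 12 libraries (edgeR's quasi-likelihood F test, adjusted over 16415 genes).

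Among the 10 with the smallest p that rose, 6 are genes of macrophages or leukocytes described with their values by library in the results or below: Selplg (1.43), Ctss (1.65), Csf1r (1.41), Trem2 (1.63), Tlr7 (1.97) and Fcgr3 (1.51). Tlr7, the endosomal sensor of single-stranded RNA, had 4.08, 4.51 and 3.7 CPM in paw on day 1 and 18.5, 15.3 and 11.8 CPM on day 6, with 2.02 to 3 CPM in every cord library. Fcgr3, a low-affinity IgG receptor, had 16.5, 16.5 and 12.3 CPM and then 50.7, 47.7 and 39.9 CPM in paw, with 9.1 to 12.1 CPM in every cord library. The agonist was itself an antibody; the part this plays was not tested. Also rising were Rgs10 (1.12), a G-protein regulator of microglia, Rassf4 (1.28), Spag5 (1.42), a mitotic spindle gene, and Kctd21 (2.24), and among complement genes C1qb (1.64), C1qc (1.52) and C3 (1.72). Tlr7 lost its call in 8 and Fcgr3 in 7 of the 12 fits without 1 library, Rgs10 in 2, Rassf4 in 4, Spag5 in 1 and Kctd21 in 6.

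Among the 10 with the smallest p that fell were Adamts1 (-1.48), Kcnd2 (-2.57), Slitrk4 (-5.12), Fabp4 (-2.47), Slc16a1 (-0.77), Pde4b (-1.70), Nr1d1 (-0.778), Zbtb10 (-0.874) and Cdh20 (-2.97). Nr1d1, a repressor of the circadian clock, had 343, 299.7 and 283 CPM in paw on day 1 and 215, 215 and 246 CPM on day 6, and in cord 122, 132 and 133 CPM and then 155, 158 and 172 CPM; the labels give no hour of sampling. Fabp4, the adipocyte fatty acid carrier, had means of 112 ± 1.15 CPM in paw on day 1 and 80.3 ± 9.07 CPM on day 6 (SD, n = 3) and stood at 0.205 to 2.08 CPM in cord, so that the size of its change rests on low cord levels. For Slitrk4, a synaptic adhesion gene, the paw libraries of day 6 stood at 0.0581, 0 and 0 CPM, and for Cdh20, a cadherin, at 0.029, 0.0244 and 0 CPM, so their fitted changes rest on a few reads. Kcnd2, a potassium channel of neurons, likewise had 5 paw reads in all on day 6, at 0.029, 0.0488 and 0.0653 CPM. Of the 12 fits without 1 library, Adamts1 passed in all, Kcnd2 in 7, Fabp4 in 5, Slc16a1 in 3, Slitrk4, Pde4b and Nr1d1 in 2, Zbtb10 in 1 and Cdh20 in 0.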

How the results depend on the processing

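The day 6 and day 1 counts of genes that differ stayed within 1.5 times of their reported values under each alternative run, leaving out single libraries included. Beyond 2-fold on day 6 they ranged from 6866 (DESeq2, 3254 higher in paw and 3612 in cord) to 8219 (all 24 libraries), and with cord library 2 alone there were 3586 and 3630. Scaling to housekeeping genes moved the median log2 fold change of all genes by -0.177 and gave 3285 higher in paw and 4332 in cord; it made the counts 12 and 2 for Toll-like receptor genes, 8 and 2 for basement membrane genes and 1 and 10 for brain and cord matrix. The change between days moved most: 42 genes became 13 with scaling by library size alone, 21 with housekeeping scaling, 395 with DESeq2 (237 rising, 158 falling) and 367 with limma voom (198 and 169), and from 3 to 80 when 1 library was left out (lower in 9 of these 12 fits and higher in 3); the cause was not tested. Of 1630 pairs of a named gene and an alternative on day 6, 8 lost a call, 10 gained one and 0 reversed, and of 462 pairs for the change 178 lost it. Deviations of same-numbered paw and cord libraries had r of -0.064 to -0.0408 on day 6 and 0.0171 to 0.0513 on day 1. Differently numbered libraries had r of -0.0919 to 0.149 on day 6 (above 0.1 for paw 1 with cord 3, paw 2 with cord 1 and paw 3 with cord 2). On day 1 these were -0.0351 to -0.00356, and each library correlated best with its own number. The numbers were not taken as pairs in the main fits, and these values do not settle whether animals were shared. With a replicate block 7575 genes differed beyond 2-fold on day 6 and 28 changed between the days. The block joins same-numbered libraries only, so pairing under another numbering was not tested. Depth limits genes near the floor of 3 counts, 0.0285 CPM in paw and 0.0473 CPM in cord. Tissue, injection site and library batch cannot be told apart.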

Other observations

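Other cell types were present at low or uneven levels. Of 6 sensory neuron genes tested 1 was higher in cord beyond 2-fold and 0 in paw. The other 5 had positive log2 fold changes, and the median was 0.69. The gene in cord was Calca, the CGRP peptide of sensory and motor neurons. It had 0.995, 2.19 and 0.887 CPM in paw and 13, 26.8 and 17.5 CPM in cord (log2 fold change -3.79 ± 0.43, adjusted p 0.00034). Mmrn1, a gene of lymphatic endothelium, had 31.9, 33.4 and 21 CPM in paw and 0.177, 0.0407 and 0 CPM in cord (log2 fold change 8.44 ± 0.48, 9.31 against cord library 2 alone and 10.00 without cord library 1). Dct, a melanin enzyme, had 2.11, 2.9 and 3.32 CPM in paw and 0.443, 0.204 and 0.678 CPM in cord, 2.70 in log2 fold change and 3.71 against cord library 2 alone. Plin4, a lipid droplet protein of adipocytes and muscle, had 74.3, 61.9 and 58.1 CPM in paw and 3.59, 11.8 and 12.9 CPM in cord.

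Genes of neutrophils, B cells and skeletal muscle varied between the libraries of a tissue. Ngp, a granule protein of immature neutrophils, had 0.0293, 0.0491 and 0.164 CPM in paw and 130, 18.4 and 31.8 CPM in cord (log2 fold change -9.54 ± 1.24, adjusted p 0.00081, a call that limma voom did not make). Without cord library 1 the value was -8.24, without paw library 3 -10.39 and with cord library 2 alone -7.87. Of 9 neutrophil genes 4 were higher in cord and 0 in paw beyond 2-fold, 1 was higher in paw without cord library 1, and limma voom called 0. Ms4a1, the B cell antigen CD20, had 0.0585, 0.0491 and 0.0329 CPM in paw and 1.46, 0.407 and 0.739 CPM in cord (log2 fold change -4.08 ± 0.66, or -3.41 without cord library 1 and -3.04 with cord library 2 alone). Myh1, a myosin of fast skeletal muscle, had 2918, 910 and 1530 CPM in paw and 2.88, 16.8 and 28.5 CPM in cord (log2 fold change 6.81 ± 1.01, 7.53 without cord library 3).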
